A study of Mus musculus with 4 samples.

Results

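Genes of cytokine feedback and JAK-STAT signalling were examined in perivascular adipose tissue (PVAT) of the mouse femoral artery 48 h after wire injury. They were chosen by name, as *Socs1*, *Socs2*, *Socs3*, *Cish*, *Stat3*, *Stat5a*, *Stat5b*, *Stat6*, *Jak2* and *Osmr*, and all 10 were found among the 12661 genes of the deposited table. RNA was sequenced from the outer tissues around the artery, which consist mainly of PVAT, of wild type C57BL/6 female mice, 11 weeks old and ovariectomized in both groups. The sham group and the injury group had 2 libraries each, and the injury was made by passing a straight spring wire into the femoral artery. The labels do not say that the libraries came from separate mice, so p-values measure the spread between these libraries only. The question of the comparison is how the tissue around an artery responds to vascular injury.

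Cytokine receptors carry JAK kinases on their inner side, which phosphorylate STAT proteins. Phosphorylated STATs enter the nucleus and switch on target genes, and among these are the SOCS genes, whose proteins shut the receptor and kinase off again. *Socs3* and *Cish* are therefore often read as transcriptional reporters of STAT3 and STAT5 activity. In adipose tissue the pathway carries signals of growth hormone, leptin, interleukins and oncostatin M, and in macrophages STAT6 carries the signal of interleukin 4. Activation of JAKs and STATs is a change in phosphorylation, which transcript levels do not measure.

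The deposited values are signed numbers on a log-like scale whose base is not stated in the sources used here, and they are called deposited units below. What a value is relative to is not stated either, so values are compared between libraries for 1 gene and are not read as the abundance of one gene against another. Differences are injury minus sham, and no fold change is given. The depth behind each value is unknown. The median of each of the 4 libraries lay between -0.0062 and -0.0028. In bulk tissue fewer cells of a type and less RNA per cell cannot be told apart.

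STAT dimers bind the palindrome TTCNNNGAA, so the promoters of the 10 genes were searched for it, since feedback through the SOCS genes is known to act there. RefSeq promoter windows (build GRCm38.p6, 250 bases before to 50 after a transcript start) were at hand for 9 of the 10 genes, all but *Socs2*. The motif reads the same on both strands. It was present in the windows of *Cish* and *Socs3* and in no window of the other 7 genes, of which *Stat5a* and *Stat5b* have 2 windows each. Of all 32851 windows 8.30% hold it. The longer form TTCNNNNGAA, the spacing that STAT6 prefers, was in none of these windows and is in 6.95% of all windows. The windows with a match are printed 5′ to 3′ on the strand of the gene, with the matches in capitals.
Cish (chr9:107296409-107296708, plus strand): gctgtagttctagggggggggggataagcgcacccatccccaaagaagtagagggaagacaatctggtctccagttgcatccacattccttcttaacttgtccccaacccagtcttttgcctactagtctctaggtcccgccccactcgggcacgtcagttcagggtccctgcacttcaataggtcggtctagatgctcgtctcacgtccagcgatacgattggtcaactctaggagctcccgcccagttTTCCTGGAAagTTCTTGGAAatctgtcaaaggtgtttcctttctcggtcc
Socs3 (chr11:117969317-117969616, minus strand): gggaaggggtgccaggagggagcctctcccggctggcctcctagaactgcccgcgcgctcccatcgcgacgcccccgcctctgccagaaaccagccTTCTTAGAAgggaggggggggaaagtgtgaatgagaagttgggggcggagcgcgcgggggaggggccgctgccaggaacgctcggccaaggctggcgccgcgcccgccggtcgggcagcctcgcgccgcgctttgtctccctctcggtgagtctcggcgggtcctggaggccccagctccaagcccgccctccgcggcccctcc

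In *Cish* a pair of matches stands in tandem, TTCCTGGAA at the annotated start and TTCTTGGAA 11 bases after it. Windows with 2 or more matches make up 0.457% of all windows. The match of *Socs3*, TTCTTAGAA, begins 154 bases before the start. A match of letters describes the sequence and does not show that a STAT is bound there.

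None of the 10 genes passed the test between injury and sham. The test was limma with Benjamini-Hochberg adjustment over all 12661 genes, at an adjusted p under 0.05, by which 7.43% of all genes were called, 3.76% higher and 3.67% lower. An unadjusted limma p under 0.05 was reached by 2 of the 10, *Socs1* and *Osmr*, and by 29.5% of all genes. In 6 of the 10 the injury libraries lay wholly to one side of the sham libraries, 2 above and 4 below, where 61.9% of all genes do so, 31.6% above and 30.3% below. The median difference of the 10 genes was -0.048 deposited units, and that of all genes 0.0085. For 1 gene alone the smallest p of an exact permutation test in this design is 0.333. The limma p-values lean on variance pooled over genes.

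**Figure D1:**
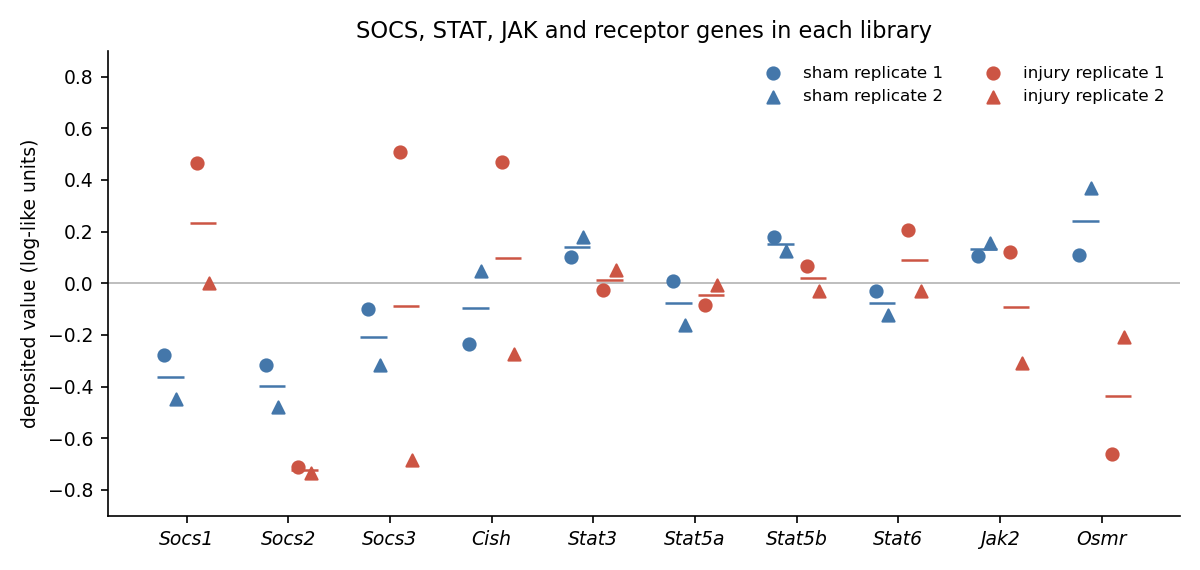
Deposited value of each gene (y axis, log-like units) in the sham libraries (blue) and the injury libraries (red), with replicate 1 as circles, replicate 2 as triangles and group means as bars. The injury libraries of *Socs3* stand farthest apart, at 0.51 and -0.68, and those of *Socs2* lie almost on each other at -0.71 and -0.74.

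Among the feedback inhibitors, *Socs1* had the highest difference of the 10 genes. SOCS1 inhibits JAK kinases directly and is best known for limiting interferon gamma signalling (gene at chr16:10783901-10785629 of mm9, minus strand). *Socs1* was at -0.28 and -0.45 deposited units in the sham libraries and at 0.47 and -3.7e-06 in the injury libraries. Both injury libraries were above both sham libraries, but they differed from each other by 0.47. The difference of 0.60 (standard error 0.20, 95% interval 0.10 to 1.09) did not pass the test (adjusted p = 0.122, limma). Differences of that size or larger, in either direction, were seen in 18.8% of all genes.

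SOCS2 is the chief brake on growth hormone signalling (chr10:94847996-94879814, minus strand). *Socs2* was at -0.32 and -0.48 after sham operation and at -0.71 and -0.74 after injury. The injury libraries were below the sham libraries and lay within 0.025 of each other, a gap that 92.9% of all genes reach or exceed. Its difference of -0.33 (standard error 0.14, 95% interval -0.67 to 0.024) did not pass the test (adjusted p = 0.192, limma), and after quantile normalization it was -0.49. *Socs2* thus had the closest injury libraries of the 10 genes, and *Socs3* the widest.

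SOCS3 binds to gp130, the leptin receptor and the G-CSF receptor and limits STAT3 (chr11:117827393-117831361, minus strand). *Socs3* was at -0.10 and -0.32 after sham operation and at 0.51 and -0.68 after injury. One injury library was above both sham libraries and the other below both. The gap of 1.19 between the injury libraries is matched or exceeded by 1.22% of all genes, while the gap of 0.22 between the sham libraries is matched or exceeded by 36.4%. Its difference of 0.12 carried a standard error of 0.39 and a 95% interval from -0.85 to 1.10 (adjusted p = 0.861, limma), and leaving out injury replicate 2 gave 0.72, leaving out replicate 1 gave -0.48. After quantile normalization of the columns it was -0.052, so *Socs3* has no settled direction in these libraries.

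CIS, the product of *Cish*, competes with STAT5 for activated receptors (chr9:107198357-107205115, plus strand). *Cish* was at -0.24 and 0.046 after sham operation and at 0.47 and -0.28 after injury. As for *Socs3*, injury replicate 1 was above both sham libraries and injury replicate 2 below both. The gap between the injury libraries was 0.74, a size that 5.74% of all genes reach. The difference of 0.19 (standard error 0.27, 95% interval -0.49 to 0.88) did not pass the test (adjusted p = 0.685, limma), and without injury replicate 1 it was -0.18. Non-coding transcripts annotated on the other strand overlap *Cish*, and whether the counting used the strand of the reads is not given in the sources used here.

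Among all genes, those most like a SOCS gene were sought by the Euclidean distance over the 4 libraries, each gene centred on its own mean. The 3 nearest to *Socs3* were *Zc3h12a* (distance 0.105), *Tnfrsf14* (0.173) and *Spata13* (0.187). *Zc3h12a* was at -0.035 and -0.13 after sham operation and at 0.64 and -0.48 after injury. The 3 nearest to *Cish* were *Dtx3l* (0.024), *Hspa5* (0.045) and *Ifi35* (0.065). With 4 libraries such likeness is a description of these values only.

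**Figure D2:**
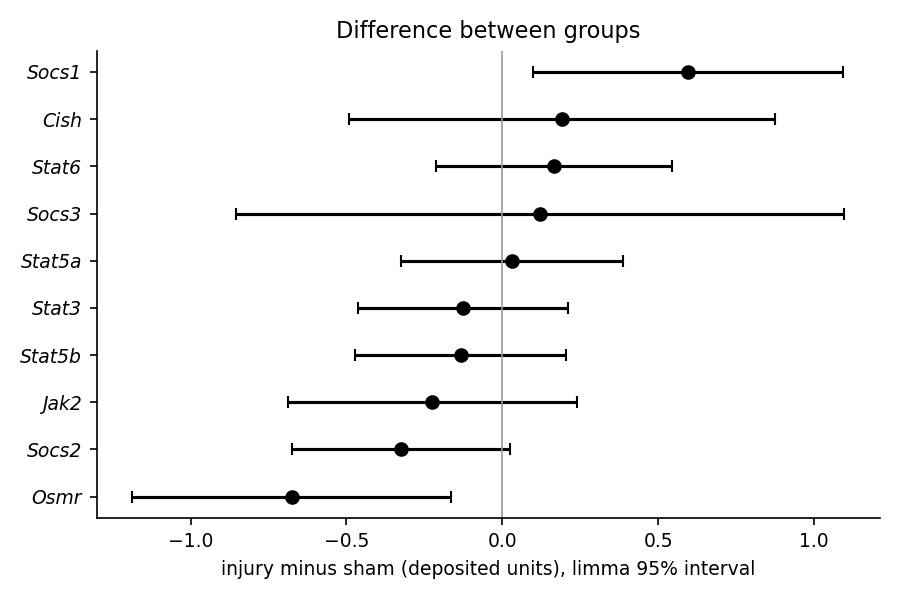
Difference between the group means (x axis, injury minus sham, deposited units) of each gene with the 95% interval of limma as bars. The intervals of *Socs1* and *Osmr* leave out 0 before adjustment for the number of genes, and the interval of *Socs3* is the widest, from -0.85 to 1.10.

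The 4 STAT genes had differences between -0.13 and 0.16 deposited units. STAT3 carries signals of the gp130 family and of leptin (chr11:100746412-100800854, minus strand). *Stat3* was at 0.10 and 0.18 after sham operation and at -0.026 and 0.050 after injury. The injury libraries were below the sham libraries by a difference of -0.13 (standard error 0.13, 95% interval -0.46 to 0.21; adjusted p = 0.574, limma).

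STAT5A and STAT5B are close relatives that carry growth hormone and prolactin signals, and their genes lie side by side with *Stat3* on chromosome 11. *Stat5b* (chr11:100642045-100712038, minus strand) is 8626 bases from *Stat5a* (chr11:100720665-100746483, plus strand), and the ends of *Stat5a* and *Stat3* overlap by 72 bases. *Stat5a* was at 0.0083 and -0.16 after sham operation and at -0.084 and -0.0069 after injury. *Stat5b* was at 0.18 and 0.12 after sham operation and at 0.068 and -0.032 after injury. The groups overlapped for *Stat5a* and did not for *Stat5b*, where injury was lower. The differences were 0.031 for *Stat5a* (95% interval -0.32 to 0.39; adjusted p = 0.902, limma) and -0.13 for *Stat5b* (95% interval -0.47 to 0.20; adjusted p = 0.556, limma). Without sham replicate 2 the difference of *Stat5a* was -0.054, and without injury replicate 2 it was -0.0076 for *Stat5a* and -0.084 for *Stat5b*. Of all windows of 150 bases in the longest coding transcript of *Stat5a*, 4.68% occur without a mismatch in *Stat5b*, and single reads from such a window match both genes.

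STAT6 is the transcription factor of interleukin 4 and 13 signalling (chr10:127080042-127098013, plus strand). *Stat6* was at -0.031 and -0.12 after sham operation and at 0.21 and -0.029 after injury. The groups were barely apart, with injury replicate 2 at -0.0290 and sham replicate 1 at -0.0306. The difference was 0.16 (standard error 0.15, 95% interval -0.21 to 0.54; adjusted p = 0.516, limma), and 0.047 without injury replicate 1.

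JAK2 is the kinase of the growth hormone, leptin and interferon gamma receptors (chr19:29326318-29387570, plus strand). *Jak2* was at 0.11 and 0.15 after sham operation and at 0.12 and -0.31 after injury. Only injury replicate 2 stood apart, and the groups overlapped. The difference of -0.22 (standard error 0.18, 95% interval -0.69 to 0.24; adjusted p = 0.468, limma) was -0.0087 without injury replicate 2. Leaving out the other injury library gave -0.44.

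OSMR pairs with gp130 to form the receptor of oncostatin M, a cytokine of macrophages and neutrophils (chr15:6763577-6824313, minus strand). *Osmr* was at 0.11 and 0.37 deposited units after sham operation and at -0.66 and -0.21 after injury. Both injury libraries were below both sham libraries, and *Osmr* had the lowest difference of the 10 genes, -0.68 (standard error 0.20, 95% interval -1.19 to -0.16). It did not pass the test (adjusted p = 0.101, limma). Without injury replicate 2 the adjusted limma p was 0.0404 for *Osmr* and also 0.0404 for *Socs1*, with the lone injury library assumed to vary like the sham libraries. Without injury replicate 1 the differences shrank to -0.45 for *Osmr* (adjusted p = 0.239, limma) and 0.36 for *Socs1* (adjusted p = 0.287, limma).

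The partners of these genes were described from 14 lists of the pathway. The lists were chosen with earlier results of these data known, so their shares of calls are descriptions only. Apart from the 10 genes the lists hold 111 genes, of which 98 were analysed. Of these, 14 were called higher and 3 lower after injury, 17.3% against 7.43% of all genes, with a median difference of 0.24. Without sham replicate 1 or without sham replicate 2 none of these 17 calls was kept, without injury replicate 1 there were 8 of them, and without injury replicate 2 all 17.

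**Figure D3:**
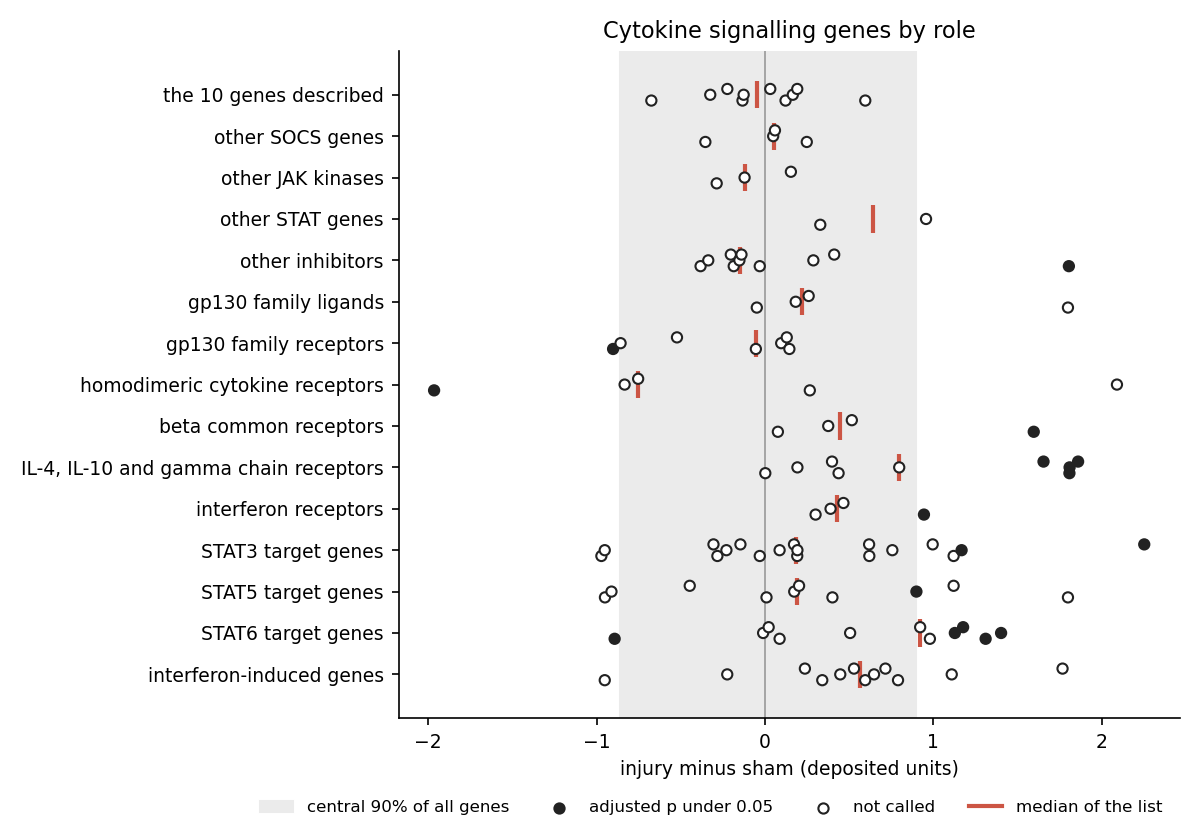
Difference of each analysed gene (x axis, injury minus sham, deposited units) by list, with genes called by limma filled, other genes open, the median of each list as a red bar and the central 90% of all genes shaded from -0.86 to 0.90. No gene of the described 10 is filled, while 4 of the 9 interleukin receptor genes and 5 of the 11 STAT6 target genes are.

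None of the other SOCS genes (4 analysed), JAK kinases (3) and STAT genes (2) passed the test of limma, which called 7.43% of all genes. An unadjusted p under 0.05 was reached by 1 of them, *Stat4*, and by 29.5% of all genes. *Socs6* had the highest and *Socs4* the lowest difference of the other SOCS genes, 0.25 and -0.35. *Tyk2* and *Jak3* marked the ends of the kinases with 0.15 and -0.29. *Stat4*, a STAT of lymphocytes and myeloid cells, was at -0.42 and -0.79 after sham operation and at 0.55 and 0.16 after injury. Its difference of 0.96 was just short of the threshold (adjusted p = 0.0542, limma) and passed it with a block for the replicate number (adjusted p = 0.0432). *Stat2*, which carries type I interferon signals, had the lower difference of its list, 0.33 (adjusted p = 0.437, limma), with injury libraries at 0.68 and -0.031.

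Of the 10 other inhibitors 1 rose, a share near the 7.43% of all genes called. *Ptpn6*, the gene of the blood cell phosphatase SHP-1, was at -1.14 and -1.53 after sham operation and at 0.84 and 0.088 after injury. It rose by 1.80 (standard error 0.29, adjusted p = 0.0327, limma). The lowest difference of the list was that of *Cbl*, a ubiquitin ligase, at -0.38 (adjusted p = 0.414, limma).

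For oncostatin M, ligand and receptor genes had differences of opposite sign. *Osm* was at -1.31 and -0.66 after sham operation and at 1.35 and 0.27 after injury. The groups did not overlap and the difference was 1.80 (standard error 0.40), just short of the threshold (adjusted p = 0.0569, limma) and past it after quantile normalization (adjusted p = 0.0448). The other 3 analysed ligands of the gp130 family had differences from -0.049 for *Cntf* to 0.26. *Il6st*, the gene of gp130 itself, was at 0.37 and 0.54 after sham operation and at -0.51 and -0.39 after injury. It fell by 0.90 deposited units (standard error 0.15, adjusted p = 0.0327, limma). It was the gene called among the 7 receptor genes listed for the family, where 7.43% of all genes were called. *Crlf2* had the highest difference of these 7, 0.14 (adjusted p = 0.706, limma), but it does not code for a receptor of the gp130 family. *Il6ra* came next at 0.13 (adjusted p = 0.631, limma).

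Among the 5 receptors that act as homodimers 1 was called, and it was lower after injury, as were 3.67% of all genes. *Lepr*, the leptin receptor gene, was at 1.01 and 0.81 after sham operation and at -1.38 and -0.73 after injury, and fell by 1.97 (standard error 0.24, adjusted p = 0.0285, limma). *Csf3r*, the G-CSF receptor gene of neutrophils, was at -1.46 and -0.97 after sham operation and at 1.56 and 0.18 after injury. Its difference of 2.09 was just short of the threshold (adjusted p = 0.0550, limma) and past it after quantile normalization (adjusted p = 0.0483). None of the 5 had groups that overlapped, with 2 above and 3 below, where 61.9% of all genes do not overlap, 31.6% above and 30.3% below.

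Among receptor genes of leukocyte cytokines all calls were higher, in 1 of 4 beta common, 4 of 9 interleukin and 1 of 4 interferon receptor genes, against 3.76% of all genes. *Csf2ra*, the GM-CSF receptor alpha gene, was at -0.997 and -0.909 after sham operation and at 0.84 and 0.44 after injury, a rise of 1.60 (standard error 0.18, adjusted p = 0.0285, limma). *Csf2rb2* had the lowest difference of its list of 4, 0.076. It has a near copy, *Csf2rb*, and how reads that match both were counted is not given in the sources used here, so its value is uncertain. Of 9 receptor genes of the interleukin 4, interleukin 10 and common gamma chain groups, 4 rose and none fell. They were *Il7r* (1.86), *Il21r* (1.81), *Il10ra* (1.81) and *Il2rb* (1.65), with adjusted p-values from 0.0323 to 0.0378 by limma. The genes of the interleukin 4 receptor in this list were not called. *Il2rg* had a difference of 0.44 (adjusted p = 0.372, limma), *Il4ra* 0.19 (adjusted p = 0.679) and *Il13ra1* 0.0015 (adjusted p = 0.998). Of the 4 interferon receptor genes *Ifngr2*, a chain of the interferon gamma receptor, rose by 0.94 (adjusted p = 0.0424, limma), a call that was lost with the replicate block (adjusted p = 0.0510). *Ifngr1*, the other chain, had a difference of 0.30 (adjusted p = 0.438, limma).

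Known target genes were listed by STAT, and some stand in more than one list, such as *Pim1* under STAT3 and STAT5 and *Myc* under STAT3 and STAT6. Of 11 targets of STAT6, 4 rose and 1 fell, against 3.76% and 3.67% of all genes, with a median difference of 0.92. The chemokine genes *Ccl24* and *Ccl22* rose by 1.40 and 1.31 (adjusted p = 0.0403 and 0.0285, limma), and the lectin gene *Clec10a* by 1.18 (adjusted p = 0.0370). *Egr2*, a transcription factor gene of alternatively activated macrophages, rose by 1.13 (adjusted p = 0.0291, limma), from -0.78 and -0.75 to 0.48 and 0.25. *Ccl24* was not called after quantile normalization (adjusted p = 0.0521). The gene that fell, *Tgm2*, is named after its value was seen (difference -0.89, adjusted p = 0.0383, limma), and with the replicate block it was not called (adjusted p = 0.0569).

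Of 18 targets of STAT3, 2 rose and none fell by limma, with a median difference of 0.18, and of 10 targets of STAT5 1 rose, against 3.76% of all genes. After quantile normalization 4 targets of STAT3 and 3 of STAT5 were called. An unadjusted p under 0.05 was reached by 9 of the 18 and 6 of the 10, against 29.5% of all genes. The genes reaching it went in both directions in each list. Among the targets of STAT3, *Lcn2* was lower at -0.97, while *Spp1* and *Cebpb* were higher. The targets of STAT3 that rose were *Spp1*, the osteopontin gene, by 2.25 (adjusted p = 0.0370), and *Cebpb*, a transcription factor gene, by 1.17 (adjusted p = 0.0285). The target of STAT5 that rose, *Bcl6*, codes for a transcriptional repressor and is itself repressed by STAT5. It rose by 0.90 (adjusted p = 0.0343, limma), from -0.27 and -0.44 to 0.63 and 0.45. The highest difference among the targets of STAT5 was that of *Osm*, given above, and the lowest that of *Igfals*, a partner of circulating IGF1, at -0.95 (adjusted p = 0.0718, limma). Of 12 interferon-induced genes none passed the test of limma, against 7.43% of all genes, and an unadjusted p under 0.05 was reached by 3, against 29.5% of all genes. Their differences ran from -0.95 for *Icam1* to 1.77 for *Cxcl10* (adjusted p = 0.0897 for each, limma).

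The interferon-induced genes differed between the injury libraries. In injury replicate 1 all 12 of them exceeded their value in replicate 2, by a median of 1.01, where 48.9% of all genes did so. In sham replicate 1 they exceeded replicate 2 in 2 of 12 genes, where 51.6% of all genes did so, and the median gap was -0.49. *Cxcl10*, a chemokine gene of this list, was at -1.13 and -0.38 in the sham libraries and reached 1.72 and 0.30 in the injured ones. Other lists had gaps between the injury libraries too. Their medians were 1.38 for neutrophil markers, 0.57 for macrophage markers and -1.07 for smooth muscle markers. Of the 10 described genes 7 were higher in injury replicate 1, with the largest gaps in *Socs3* (1.19), *Cish* (0.74) and *Socs1* (0.47), and *Osmr* had the lowest at -0.45.

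**Figure D4:**
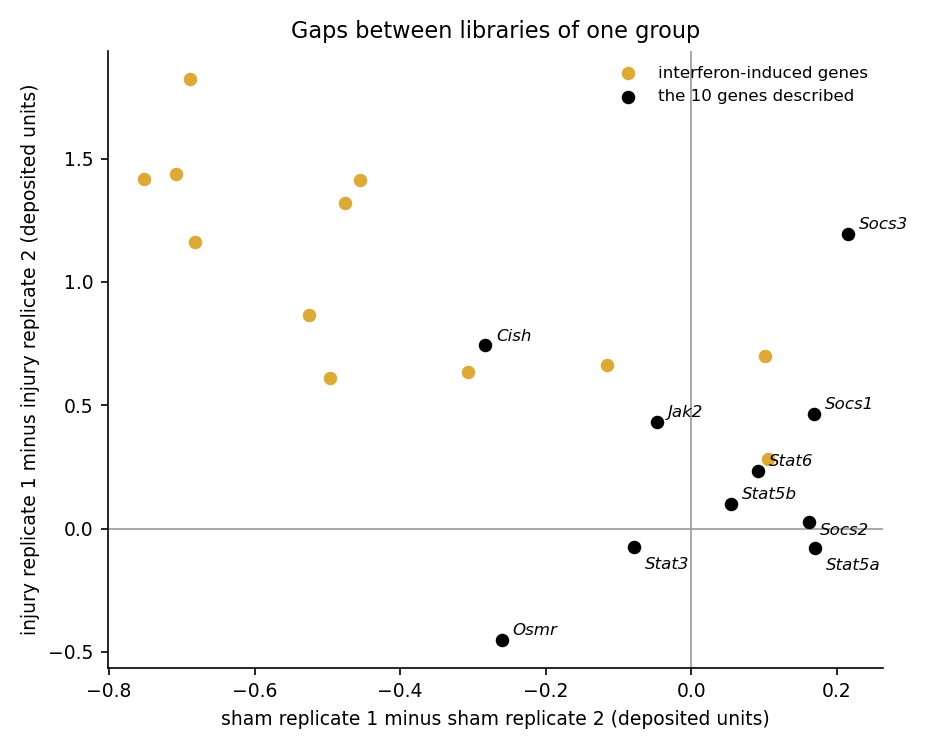
Gap between the injury libraries (y axis, replicate 1 minus replicate 2, deposited units) against the gap between the sham libraries (x axis) for the 10 described genes (black) and the 12 interferon-induced genes (yellow). All interferon-induced genes and 7 of the 10 genes lie above 0 on the y axis, with *Socs3* the highest of the 10 at 1.19.

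Marker genes of macrophages, neutrophils and brown adipocytes held calls that were all higher after injury, where 3.76% of all genes were called higher and 3.67% lower. Of 12 macrophage markers 7 were called higher and none lower, with medians over the list of -1.17 and -1.15 in the sham libraries and 0.37 and -0.14 in the injury libraries. Of 7 neutrophil markers 2 were called higher, with medians of -1.34 and -0.97 in sham and 1.22 and 0.18 in injury libraries. Injury replicate 1 exceeded replicate 2 in 11 of 12 macrophage and 7 of 7 neutrophil genes. Of 3 analysed markers of T, B and NK cells none was called by limma, and 1 had an unadjusted p under 0.05, against 29.5% of all genes. Brown adipocyte markers were called higher in 6 of 8 genes, and 1 of 10 markers of all adipocytes was called lower, with a median difference of 0.045. The brown adipocyte markers not called were *Ucp1* and *Dio2* (adjusted p = 0.164 and 0.106, limma). *Ucp1* was at 0.97 and 2.76 after sham operation and at 3.82 and 3.02 after injury. The count for markers of all adipocytes is near the share of all genes called.

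Among markers of stromal cells all calls were lower, in 4 of 6 smooth muscle, 4 of 8 fibroblast, 3 of 8 endothelial and 2 of 7 Schwann cell genes, against 3.67% of all genes. The median differences of these lists were -2.15, -0.75, -0.76 and -0.66. None of 6 skeletal muscle markers was called by limma, and their median difference was -0.75. An unadjusted p under 0.05 was reached by 3 of them, against 29.5% of all genes. Since the values are not read as abundance, no marker can be said to be absent. The part of these cell types in the differences of the receptor, SOCS and target genes was not tested.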

How the data were processed

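Per the labels and the paper's methods, 480 ng of RNA per sample went into a stranded mRNA kit, and reads were checked with FastQC 0.11.8, trimmed with Cutadapt 1.18 and Trimmomatic 0.39, aligned to mm9 with STAR 2.6.0a and counted with featureCounts. The authors deposited a signed score per gene and library, between -2.27 and 6.45, on a log-like scale. How it was made from the counts, and which filter left 12661 genes, is not given in the sources used here, so counts and depth are unknown and no count model, detection limit or filter was used.

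Injury was compared with sham by limma 3.58.1 in R 4.3.3 (group as the only term, no trend, 4 libraries, 2 residual and 3.48 prior degrees of freedom) with Benjamini-Hochberg adjustment over all genes, at a threshold of 0.05. Tested on simulated data of this comparison (12661 genes, 20 runs, 200 genes changed), the fit called 22.4% of genes changed by 1 unit and 64.8% of genes changed by 2 units. The members and lists were chosen with earlier results of these data known. Beside the 10 genes, those named from each pathway list were the genes called, at most 4 by size, and the highest and lowest where fewer than 2 were called. *Il2rg*, *Il4ra*, *Il13ra1*, *Il6ra* and *Lcn2* were named in addition, after their values were seen. Alternatives were a replicate block, each library left out, a robust prior, a variance trend, quantile normalization, one spread for all columns, identical rows counted once and a threshold of 0.1. Values of some genes of the pathway are not reported here. Gene coordinates are those of GENCODE M1 on NCBIM37 (mm9), and promoters those of RefSeq on GRCm38.p6. Python 3.11.15, pandas 2.3.3 and matplotlib 3.10.9 were used.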

Additional observations from a re-analysis of the deposited data

How the results depend on the processing

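None of the 10 genes was called by limma at 0.05 in any fit to all 4 libraries, nor at 0.1 in the fit as reported, and 59 of 60 single differences kept their direction there. *Osmr* had an adjusted p of 0.078 to 0.105 over these alternatives (limma), under 0.1 with the replicate block, the variance trend, one spread and quantile normalization. The exception in direction was *Socs3* after quantile normalization, at -0.052. With 1 library left out, 0 to 2 of the 10 genes were called, the 2 being *Socs1* and *Osmr* without injury replicate 2. Differences then ran from -0.48 to 0.72 for *Socs3*, from -0.18 to 0.56 for *Cish* and from -0.054 to 0.12 for *Stat5a*, the 3 genes that reversed. The cause was not tested.

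Over all genes 941 were called, 2317 at a threshold of 0.1 and 0 to 1790 with 1 library left out (0 without sham replicate 1, 1 without sham replicate 2, 284 without injury replicate 1 and 1790 without injury replicate 2), where fewer libraries are tested. An unadjusted p under 0.05 was reached by 1960 genes without sham replicate 1. The 17 calls among the pathway genes are lost without either sham library. Libraries with the same replicate number did not deviate together (correlation -0.094 over genes), so the numbers were not taken to pair them. With the replicate block 684 genes were called, 1 of 2 other STAT genes and 0 of 4 interferon receptor genes. After quantile normalization 1 ligand of the gp130 family, 2 homodimeric receptors, 4 targets of STAT3 and 3 of STAT5 were called, with *Pim1* in both. Under these settings, the replicate block and quantile normalization, no other pathway list changed its count by over 1.5 times. The lists of cell markers were not run under alternatives.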
